A study of Saccharomyces cerevisiae with 6 samples.

Results

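The pheromone response pathway of budding yeast was examined through 10 genes in cells with and without the [GAR+] prion, and none of the 10 differed between the 2 states beyond the spread between cultures. The genes were chosen by name, with 1 probe set per gene, out of 5656 genes on the array. They encode the 3 subunits of the G protein (GPA1, STE4 and STE18), the scaffold and kinases of the MAP kinase cascade (STE5, STE11, STE7 and FUS3), its transcription factor (STE12) and a pair of response genes (FUS1 and SST2). All 10 were found on the array. A prion is a heritable state carried by a protein rather than by a mutation, and cells with [GAR+] can use other carbon sources in the presence of a glucose mimic.

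The groups were 3 [GAR+] and 3 [gar-] cultures, the second lacking the prion. All 6 were the laboratory strain W303, grown separately in complete synthetic medium with 2% glucose to late exponential phase at an OD600 of about 0.8, and no pheromone treatment is mentioned for either group. Poly(A) RNA of each culture was hybridised to 1 Affymetrix array. The labels give neither the mating type of the strain nor how the [GAR+] cells were obtained.

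In this pathway a pheromone binds a receptor on a haploid cell of the opposite mating type, and the receptor releases the Gβγ dimer from the Gα subunit. Gβγ recruits the scaffold Ste5, on which the kinases Ste11, Ste7 and Fus3 act in turn, and Fus3 relieves the inhibition of Ste12. Ste12 then switches on genes for cell cycle arrest and fusion. Several of these genes, among them GPA1, STE4, STE18 and STE5, are switched off in a/alpha diploids.

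Deposited MAS5 signals did not share a scale, with trimmed means per array of 192 to 500, so the 6 arrays were quantile-normalized and all levels are normalized signals. A level belongs to its probe set, so levels of single genes were compared only with the control probe sets of the same array. The exception is the summed signal of the cell type markers, in which bright probe sets weigh most. Every fold change is a log2 value of [GAR+] over [gar-], computed after adding 16 to the signal, which understates changes of dim genes. Each was tested with limma over 6504 probe sets, and a probe set passed at a Benjamini-Hochberg adjusted p under 0.05. To mark the dim end, 16 control probe sets without a matching transcript in the sample read at most 12.7 to 27.6, depending on the array. Over all probe sets, 1 passed. It was that of HXT3, a glucose transporter gene, with 59.0 ± 16.3 in [GAR+] cultures and 4103 ± 473 in [gar-] cultures (SD, n = 3 each).

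The cell type of the cultures was checked first. The a-cell receptor gene STE2 read 544 to 692 in [GAR+] cultures and 538 to 777 in [gar-] cultures. The a-factor gene MFA2 read 2697 to 3242 in [GAR+] cultures and 2480 to 2846 in [gar-] cultures. The alpha-cell receptor gene STE3 read 13.0 to 16.5 in [GAR+] cultures and 14.3 to 19.3 in [gar-] cultures, at or below the highest control on 4 of 6 arrays. STE2 and MFA2 were above the highest control on 6 of 6 arrays, as were the other a-cell markers except ASG7, which was at or below it on 5 of 6. No mating type was assigned from these values. The haploid-expressed genes RME1 and HO read 710 to 917 and 297 to 367 over the 6 arrays, above the highest control on each. Of the 6 diploid and meiosis markers, SPO11 and SPO13 were at or below the highest control on 6 of 6 arrays, IME4 on 5 and IME2 on 4. IME1, at 28.5 to 79.0, and NDT80, at 28.7 to 49.3, were above it on all arrays. None of the 7 a-cell, 4 alpha-cell, 6 diploid and meiosis or 2 haploid markers passed in limma. At an unadjusted p under 0.05 there were 2 of these 19, against 2.98% of all tested probe sets. They were the dim meiosis genes SPO11, at 0.39, and IME4, at -0.36, in opposite directions. The groups did not overlap for AGA2 and SPO11, higher in [GAR+], and for IME4 and NDT80, lower in [GAR+]. They overlapped for the other markers, and over all tested probe sets they did not overlap for 8.86%. The a-agglutinin gene AGA2 gave 0.22, with 284 ± 14.8 in [GAR+] cultures and 241 ± 9.57 in [gar-] cultures (SD, n = 3 each). The summed signal of the a-cell markers was 6430 to 8524 in [GAR+] cultures and 5353 to 6785 in [gar-] cultures. MFA1 and MFA2 made up most of that sum, and MFA1 read 1990 to 3559 in [GAR+] cultures and 1192 to 2401 in [gar-] cultures. Of the 7 a-cell markers, 3 had fold changes below 0: STE2, BAR1 and ASG7. The summed signal of the alpha-cell markers was 108 to 138 in [GAR+] cultures and 103 to 116 in [gar-] cultures. The alpha-agglutinin gene SAG1 read 53.3 to 70.7 over all arrays, above the controls. No marker was at 0.

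Of the 10 pathway genes, 0 passed in limma in either direction, and 0 had an unadjusted p under 0.05. The share that passed over all tested probe sets was 0.0154%, and 2.98% had such an unadjusted p. The fold changes ran from -0.23 to 0.28 with a median of 0.02, beside a median of 0.01 over all tested probe sets, and 4 of 10 lay below 0, against 48.2% of all tested probe sets. Groups overlapped for all 10 genes, and over all probe sets they did not overlap for 8.86%. In a bulk culture, fewer cells that express a gene and less RNA per cell cannot be told apart.

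The 95% confidence intervals bound how large a difference these arrays leave room for in the fit without the culture number. Intervals with the culture number as a block were not computed. They lay within 2-fold in either direction for 10 of 10 genes and within 1.5-fold for 6, against 96.1% and 61.3% of all probe sets. The widest bounds were 1.77-fold for SST2, 1.62-fold for STE4, 1.56-fold for FUS3 and 1.51-fold for STE12. For FUS3 a second probe set gave a bound of 1.78-fold in the other direction. Each bound of these 4 genes is the wider side of its interval, toward higher [GAR+] levels for SST2 and the first FUS3 probe set, and toward lower ones for STE4 and STE12. On that side a difference of up to the size given is compatible with the data. The other ends, as [GAR+] over [gar-], were 0.84 for SST2, 1.18 for STE4, 0.77 for FUS3 and 1.28 for STE12. The narrowest intervals were those of FUS1, STE5 and STE11, whose bounds were 1.28-fold, 1.31-fold and 1.32-fold. The intervals of the dim genes FUS1 and STE7 were drawn in by the constant of 16 added to the signal. Both are among the 6 genes within 1.5-fold, so that count holds for this constant only.

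**Figure D1:**
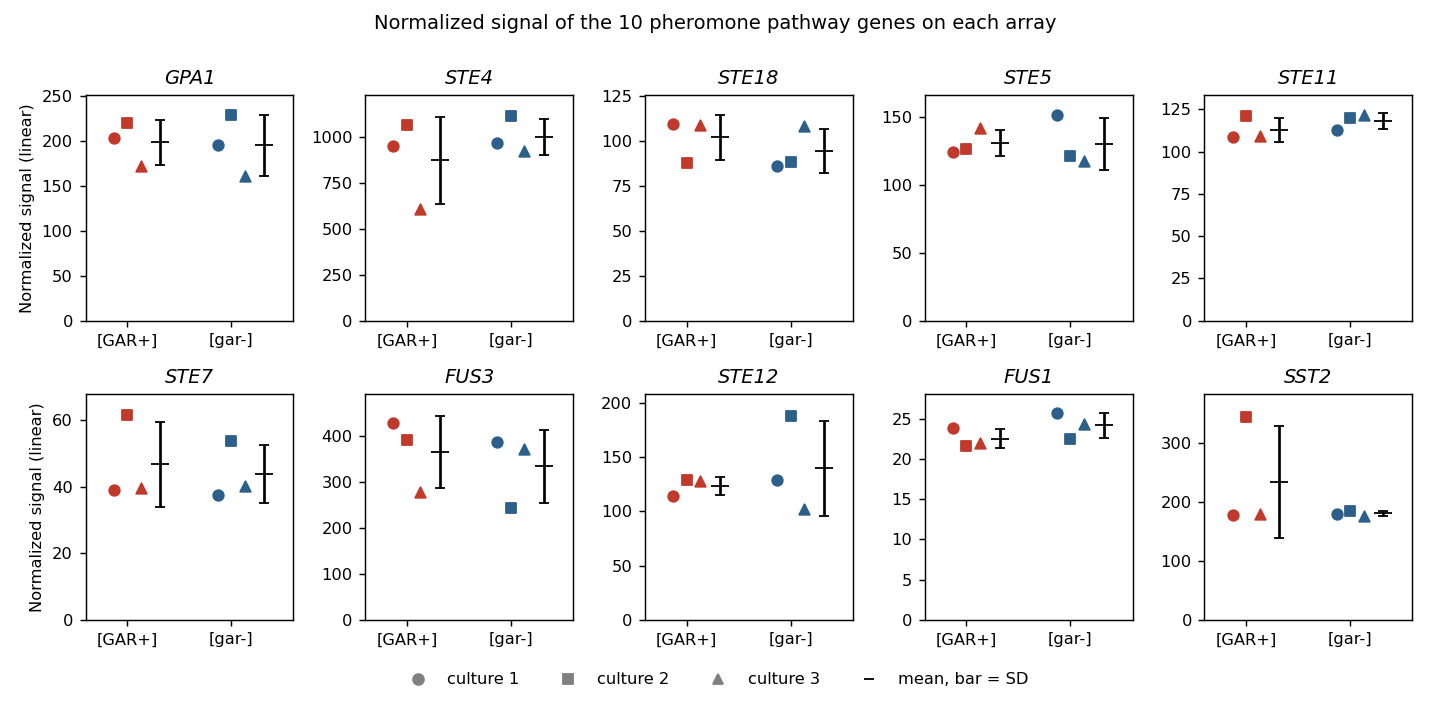
Normalized MAS5 signal (linear y axis from 0, scaled per panel) of each of the 10 genes in [GAR+] (red) and [gar-] (blue) cultures, with 1 point per array, its shape the culture number, and the mean and SD of 3 cultures in black. The groups overlap in every panel, and [GAR+] culture 2 stands at 344 for SST2 while the other 5 arrays read 177 to 185.

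Among the G protein genes, GPA1 (YHR005C) encodes the Gα subunit, which holds Gβγ inactive until the receptor is occupied. It read 204, 221 and 172 in [GAR+] cultures 1, 2 and 3, against 196, 229 and 161 in [gar-] cultures 1, 2 and 3. In both groups culture 2 was highest and culture 3 lowest. GPA1 gave a fold change of 0.03 with a standard error of 0.18 (limma adjusted p = 1.00). The same-numbered cultures differed by 0.05, -0.05 and 0.09 on the log2 scale, while GPA1 spanned 1.42-fold between its highest and lowest array.

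STE4 (YOR212W) encodes the Gβ subunit, which carries the signal to the scaffold and polarity proteins. It read 951, 1063 and 607 in [GAR+] cultures 1, 2 and 3, against 969, 1112 and 924 in [gar-] cultures. One array set it apart: [GAR+] culture 3 lay below the other 5. The fold change of -0.23 (standard error 0.21, limma adjusted p = 1.00) was the lowest of the 10 and became 0.01 without [GAR+] culture 3. At culture numbers 1 and 2 the [GAR+] value differed from its [gar-] counterpart by only -0.03 and -0.06, at number 3 by -0.59.

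STE18 (YJR086W) encodes the small Gγ subunit, which anchors Gβ to the membrane. It read 110, 87.5 and 109 in [GAR+] cultures 1, 2 and 3, against 86.2, 88.4 and 108 in [gar-] cultures. The values fell near 2 levels, with 2 [GAR+] cultures and 1 [gar-] culture at the upper one. For STE18 it was 0.10 with a standard error of 0.17 (limma adjusted p = 1.00). The 3 subunits of the complex thus had fold changes between -0.23 and 0.10, and each interval spanned 0.

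In the kinase cascade, STE5 (YDR103W) encodes the scaffold that holds the kinases together. It read 125, 126 and 142 in [GAR+] cultures 1, 2 and 3, against 152, 121 and 117 in [gar-] cultures. The highest and the lowest array were both [gar-]. Its fold change of 0.01 (standard error 0.17, limma adjusted p = 1.00) was the closest to 0 of the 10.

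STE11 (YLR362W) encodes the kinase at the top of the cascade, which also serves the osmotic stress and filamentation pathways. It read 108, 121 and 109 in [GAR+] cultures 1, 2 and 3, against 113, 120 and 122 in [gar-] cultures. It was the steadiest gene of the 10, with 1.12-fold between its highest and lowest array. STE11 gave -0.06 with a standard error of 0.15 (limma adjusted p = 1.00).

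STE7 (YDL159W) encodes the kinase that phosphorylates Fus3. It read 38.9, 61.4 and 39.7 in [GAR+] cultures 1, 2 and 3, against 37.5, 53.7 and 40.4 in [gar-] cultures. Both cultures numbered 2 stood above the other 4 arrays, whose values lay between 37.5 and 40.4. STE7 gave a fold change of 0.06 with a standard error of 0.19 (limma adjusted p = 1.00). Its deviations from the mean over all arrays were 0.35 and 0.20 for [GAR+] and [gar-] culture 2.

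FUS3 (YBL016W) encodes the MAP kinase that acts on Ste12 and on the arrest factor Far1. By its probe set of highest mean it read 427, 391 and 277 in [GAR+] cultures 1, 2 and 3, against 386, 243 and 372 in [gar-] cultures. Each group held 2 higher arrays and 1 lower one. This gave 0.13 with a standard error of 0.23 (limma adjusted p = 1.00). Between cultures 2 it was 0.65 and between cultures 3 -0.40.

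FUS3 was the one gene of the 10 with several probe sets, and they disagreed. A second probe set, 2458_g_at, read 218, 134 and 237 in [GAR+] cultures 1, 2 and 3, against 204, 270 and 261 in [gar-] cultures, with a fold change of -0.33 and a standard error of 0.23. The third, 2457_at, read 0.24 to 5.17 in [GAR+] cultures and 1.27 to 8.93 in [gar-] cultures, at or below the highest control on 6 of 6 arrays, so it carries no usable level. Between cultures 2 the first 2 probe sets went in opposite directions, with differences of 0.65 and -0.93. Neither passed (limma adjusted p = 1.00 for both), and the direction for FUS3 is not settled by these arrays.

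**Figure D2:**
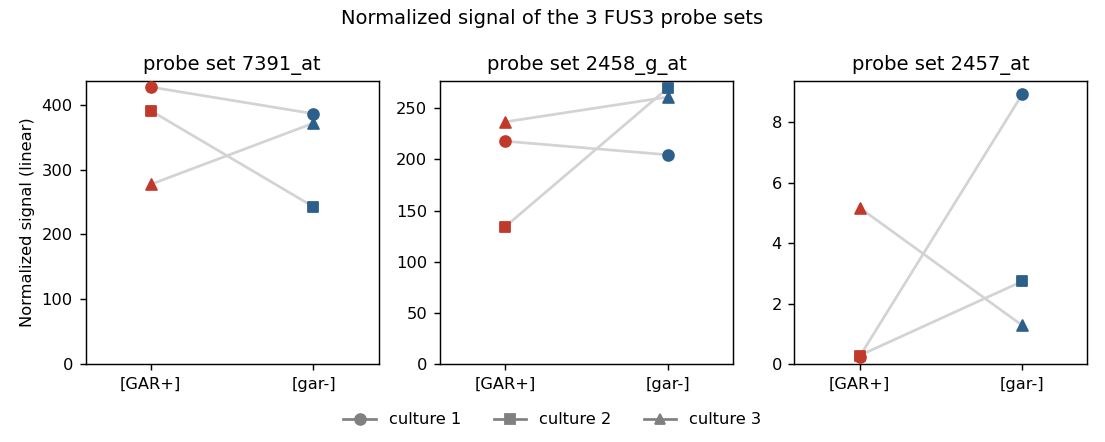
Normalized signal (linear y axis from 0, scaled per panel) of the 3 FUS3 probe sets in [GAR+] (red) and [gar-] (blue) cultures, with grey lines joining cultures of the same number. In culture 2 probe set 7391_at read 391 in [GAR+] and 243 in [gar-], while probe set 2458_g_at read 134 in [GAR+] and 270 in [gar-].

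STE12 (YHR084W) encodes the transcription factor at the end of the cascade. It read 114, 129 and 128 in [GAR+] cultures 1, 2 and 3, against 129, 188 and 103 in [gar-] cultures. The [GAR+] values lay between the highest and lowest [gar-] values, and the spread was wider in [gar-], with an SD of 43.8 against 8.24 in [GAR+] (n = 3 each). STE12 gave -0.12 with a standard error of 0.21 (limma adjusted p = 1.00). Without [gar-] culture 2, the highest array, it became 0.09.

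FUS1 (YCL027W) encodes a membrane protein needed for the fusion of mating cells, and it is a strongly pheromone-induced target of Ste12. It read 23.9, 21.7 and 22.0 in [GAR+] cultures 1, 2 and 3, against 25.7, 22.5 and 24.3 in [gar-] cultures. All 6 values were low, and on the array of [gar-] culture 1 FUS1 lay below the highest control (27.6). The fold change was -0.06 with a standard error of 0.13 (limma adjusted p = 1.00), and -0.10 with 1 instead of 16 added to the signal. A signal this close to the controls limits what FUS1 can show about differences in either direction.

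SST2 (YLR452C) encodes the regulator of G protein signalling that speeds the return of Gpa1 to its inactive state, and it is itself induced by pheromone. It read 178, 344 and 180 in [GAR+] cultures 1, 2 and 3, against 180, 185 and 177 in [gar-] cultures. A single array, [GAR+] culture 2, stood above the other 5, which were close together. The fold change of 0.28 (standard error 0.24, limma adjusted p = 1.00) was the highest of the 10, and it was -0.01 without that culture. The differences at culture numbers 1, 2 and 3 were -0.02, 0.84 and 0.02.

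The high SST2 signal of [GAR+] culture 2 was set beside other pheromone-induced genes on the same array, which were chosen for this after the values were seen. FUS1 read 21.7 there, the lowest of its 6 values. AGA1, an agglutinin gene, read 275 there, against 205 and 170 in the other [GAR+] cultures and 181, 199 and 156 in [gar-] cultures. FAR1, which encodes the arrest factor, read 517 there and 495 in [gar-] culture 2, and 331 to 396 on the remaining arrays. KAR4, a mating transcription factor gene, read 99.3 there, the lowest of its 6 values. On that array SST2, AGA1 and FAR1 were thus at their highest while FUS1 and KAR4 were at their lowest. Of the other arrest and mating targets read below, FIG2, CIK1 and PRM6 were also at their highest there. PRM5, PRM8, PRM10 and ASG7 were also at their lowest there, and the rest were at neither. Some margins were small, as for FUS1 with 22.0 in [GAR+] culture 3, and PRM6 was at or below the highest control on 6 of 6 arrays.

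**Figure D3:**
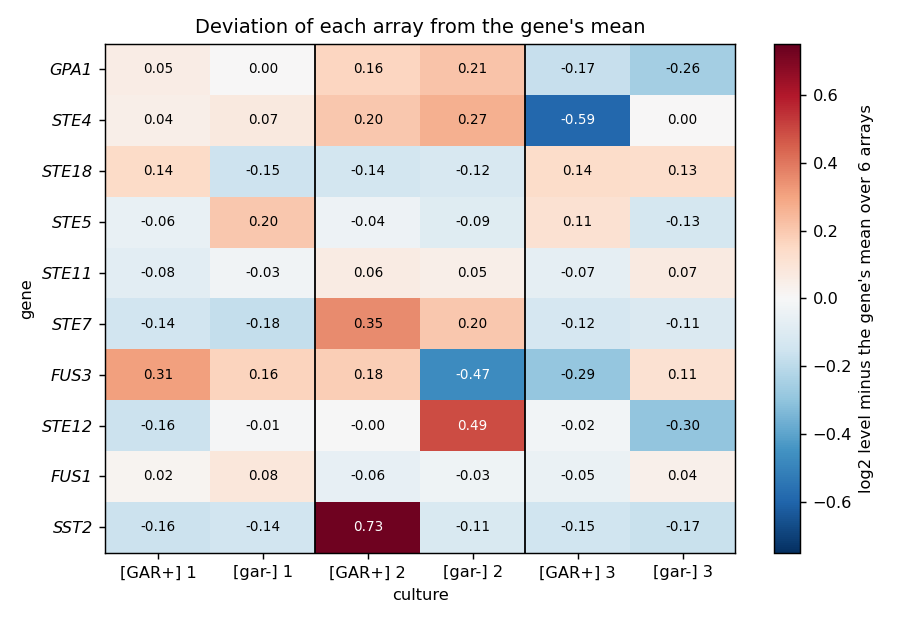
Log2 level of each of the 10 genes (rows) on each array (columns, in pairs of the same culture number) minus the gene's mean over 6 arrays, with red above and blue below the mean. The 2 columns of culture 2 are both red for GPA1, STE4 and STE7, and faintly for STE11 at 0.06 and 0.05. The strongest cell is SST2 in [GAR+] culture 2 at 0.73.

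Variation by culture number was described after the values of the genes were seen. For 5 of 10 genes, GPA1, STE4, STE7, STE12 and SST2, the arrays of both cultures numbered 2 were the 2 highest of the 6. Over all tested probe sets this held for 17%, and among the 46 further pathway genes described below it held for 9. Both were the 2 lowest for 11.9% of all tested probe sets, 5 of the 46 genes and 0 of the 10 genes. STE18 came close to that, at 87.5 and 88.4 in [GAR+] and [gar-] culture 2 against 86.2 in [gar-] culture 1. For STE12 and SST2 the margin of one of the arrays was small: 129.2 in [GAR+] culture 2 against 128.7 in [gar-] culture 1 for STE12, and 184.6 in [gar-] culture 2 against 180.1 in [gar-] culture 1 for SST2. Those 2 arrays even lay below the gene's own log2 mean over 6 arrays, with deviations of -0.0036 for STE12 and -0.11 for SST2. The fold between highest and lowest array ran from 1.12 for STE11 to 1.95 for SST2, with a median of 1.53, beside 1.64 over all tested probe sets. What the cultures of one number share is not stated in the labels.

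The rest of the pathway was read from the same fit through a list of 46 further genes. Of these, 0 passed in limma in either direction. At an unadjusted p under 0.05 there was 1, and there were 2 when the fit held the culture number as a block, where 6.78% of all probe sets had such a p. The fold changes had a median of -0.01, with 22 above and 24 below 0, and the groups did not overlap for 1 gene, PRM2. That is a share below the 8.86% over all probe sets.

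**Figure D4:**
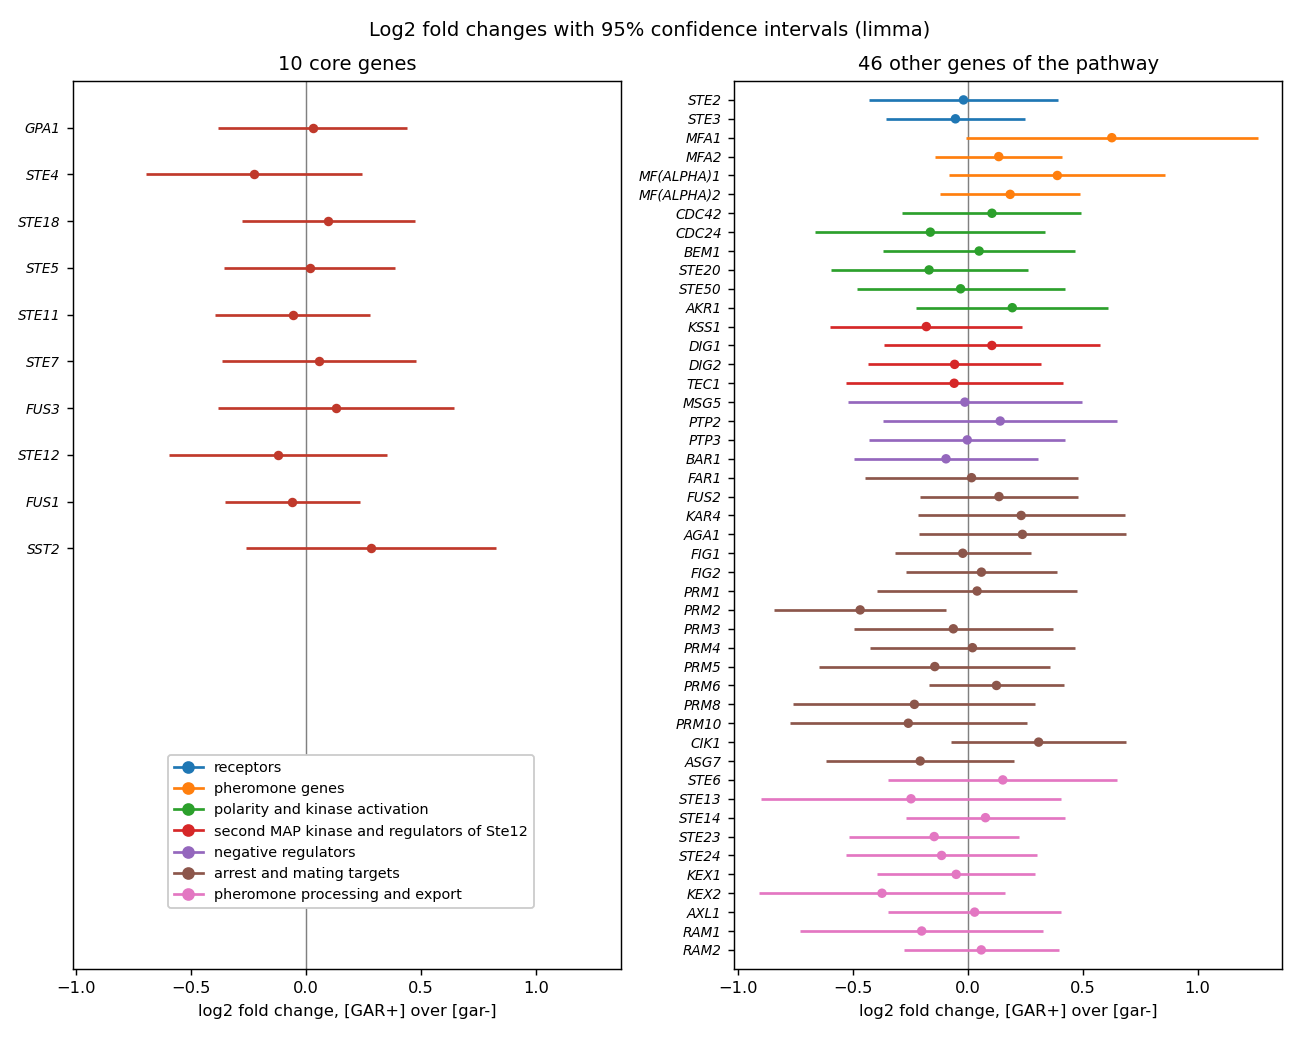
Log2 fold changes of [GAR+] over [gar-] with 95% confidence intervals from limma for the 10 core genes (left) and 46 other genes of the pathway (right, coloured by role). Every interval of the core genes spans 0, and of the others only that of PRM2 does not.

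Upstream of the G protein, the receptor gene STE2 gave -0.02 (standard error 0.18) and STE3 -0.05 at signals near the controls. The pheromone genes were 4 of 4 above 0, as were 3366 of all 6504 tested probe sets, and none of the 4 passed. MFA2 gave 0.14. MF(ALPHA)2 gave 0.19 and was at or below the highest control on 3 of 6 arrays. MFA1, an a-factor gene, read 2132, 3559 and 1990 in [GAR+] cultures 1, 2 and 3, against 2401, 1416 and 1192 in [gar-] cultures. [gar-] culture 1 exceeded 2 of the [GAR+] cultures, so the groups overlapped. MFA1 gave 0.63 with a standard error of 0.28 and did not pass (limma adjusted p = 1.00, unadjusted p = 0.0520, or 0.0307 with the block). The fold change was 0.37 without [GAR+] culture 2 and 0.92 without [gar-] culture 1, and it passed in neither fit. Its probe set has the suffix _f_at, given to probes shared within a gene family, and a second one gave 0.43. MF(ALPHA)1, an alpha-factor gene, gave 0.39 at 18.0 to 33.8 in [GAR+] cultures and 7.63 to 20.6 in [gar-] cultures, at or below the highest control on 3 of 6 arrays. It gave 0.19 without [gar-] culture 2, 0.05 without both cultures numbered 2, and 0.72 with 1 instead of 16 added.

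Between the G protein and the cascade, the polarity and kinase activation genes were 3 of 6 above 0. The largest values were 0.19 for AKR1, which encodes a palmitoyltransferase, and -0.17 for STE20, whose kinase activates Ste11. AKR1 gave 0.09 without [GAR+] culture 3 or without [gar-] culture 1. STE20 read 197, 298 and 281 in [GAR+] cultures 1, 2 and 3, against 301, 307 and 259 in [gar-] cultures, and without [GAR+] culture 1 its fold change was 0.01. At the level of Fus3 and Ste12, 1 of 4 genes lay above 0. KSS1 encodes the second MAP kinase, which can take the place of Fus3 in mating. It read 47.2, 51.6 and 48.9 in [GAR+] cultures 1, 2 and 3, against 43.9, 77.7 and 55.7 in [gar-] cultures. The value of [gar-] culture 2 stood highest, the fold change was -0.18, and it was -0.01 without that culture. DIG1, which encodes an inhibitor of Ste12, gave 0.11.

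Among the negative regulators 1 of 4 lay above 0, with PTP2, a phosphatase gene that acts on MAP kinases, at 0.14 and BAR1, whose product degrades alpha-factor, at -0.09. Of the 4 other probe sets of PTP2, 2 were at or below the highest control on 6 of 6 arrays and carry no usable level, and the remaining ones gave 0.17 and 0.25. Without [GAR+] culture 1 PTP2 gave -0.10, and without [GAR+] culture 2 BAR1 gave 0.06. Of the 16 arrest and mating targets, 9 lay above 0. PRM2, which encodes a pheromone-regulated membrane protein, read 7.62, 8.86 and 14.8 in [GAR+] cultures 1, 2 and 3, against 27.4, 17.0 and 17.4 in [gar-] cultures. All 3 [GAR+] values lay below the [gar-] values, but on 5 of 6 arrays PRM2 was at or below the highest control. It gave -0.47 with a standard error of 0.17 (limma adjusted p = 1.00, unadjusted p = 0.0197), and -0.94 with 1 instead of 16 added. CIK1, which encodes a partner of the nuclear fusion motor Kar3, gave 0.31 with a standard error of 0.17, and it did not pass either.

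Of the 10 genes for pheromone processing and export, 4 lay above 0. KEX2, which encodes the protease that cleaves the alpha-factor precursor, read 198, 114 and 236 in [GAR+] cultures 1, 2 and 3, against 227, 228 and 240 in [gar-] cultures. The lowest value, in [GAR+] culture 2, set most of its fold change of -0.37, which was -0.09 without that culture. STE13, whose product trims the same precursor, gave -0.25 with a standard error of 0.29, the largest error on the list. It read 111 and 122 in [GAR+] and [gar-] culture 2, below the remaining arrays at 173 to 272. Without [gar-] culture 2 STE13 gave -0.53, without [gar-] culture 3 -0.0023 and without [GAR+] culture 2 -0.02. Neither passed.

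**Figure D5:**
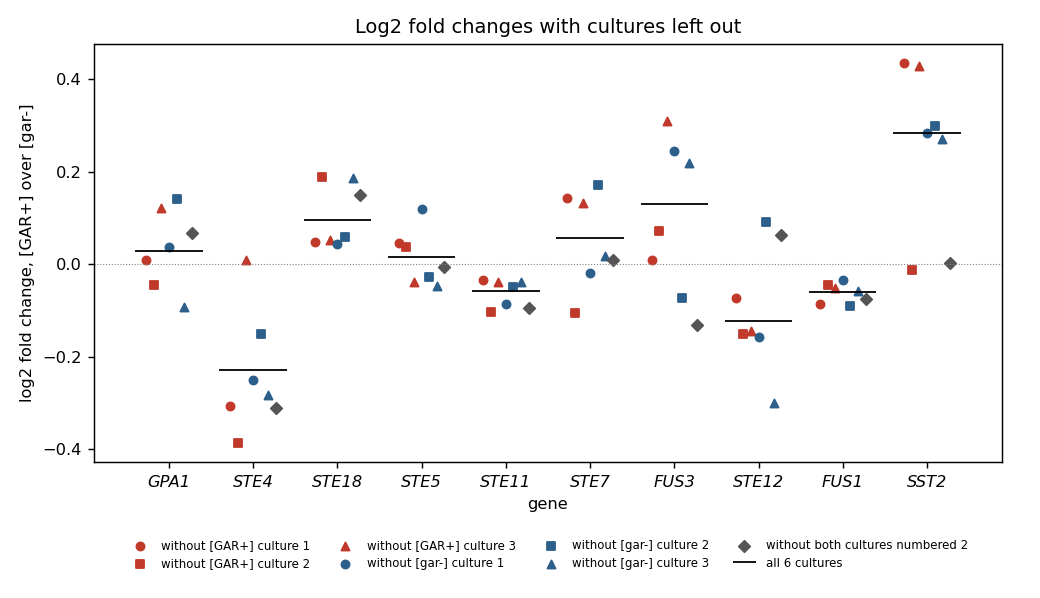
Log2 fold changes of [GAR+] over [gar-] for the 10 genes with all 6 cultures (black lines), without each culture in turn (red for [GAR+], blue for [gar-], shape by culture number) and without both cultures numbered 2 (grey diamonds). SST2 moves from 0.28 to -0.01 when [GAR+] culture 2 is left out, and STE4 from -0.23 to 0.01 when [GAR+] culture 3 is left out.

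Leaving out 1 culture at a time moved the direction of 7 of the 10 genes at least once, and none passed in any of these fits. Only STE18, STE11 and FUS1 kept 1 direction through all 6. Those ranges were 0.04 to 0.19 for STE18, -0.10 to -0.03 for STE11 and -0.09 to -0.03 for FUS1, each narrower than the standard error of the gene's fold change. The median of the 10 genes ranged from -0.04 without [GAR+] culture 2 to 0.03 without [GAR+] culture 3.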

How the data were processed

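The deposited table holds 1 linear intensity (MAS5 signal) per probe set and array. Per the submitters' processing notes, MAS5 and GCOS were used, while versions, scaling target and detection calls are not stated there. Of 9335 probe sets, 6504 had exactly 1 gene in the platform annotation of 2016 and were tested, 328 had several and 2503 were unnamed there. All 6504 gene identifiers matched the gene table of assembly R64, which served for names only. A gene with several probe sets was represented by that of highest mean signal. The 6 arrays were quantile-normalized over all probe sets and analysed as log2(signal + 16) with limma 3.58.1 in R 4.3.3 (lmFit, eBayes with a trend, no covariate), two-sided, with Benjamini-Hochberg adjustment over the tested probe sets. The steps were tested on simulated data.

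The 16 control probe sets are the mouse and trp controls and the reverse strand of the hybridisation controls. Precision is limited by the number of arrays, and over all tested probe sets the standard error of the fold change had a median of 0.18. Array pairs correlated at 0.972 to 0.991, and none were identical.

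The members, the lists and the test were chosen with earlier results of these data known. The text names all 10 members and, from each of the 7 further lists, the genes that passed or else the 2 of largest absolute fold change. The rule also takes the 19 cell type markers and HXT3. Other genes are marked as chosen after their values were seen.

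Same-numbered arrays deviated together from their group means, at correlations of 0.322, 0.347 and 0.346 over the tested probe sets, against -0.311 to 0.0751 for other numbers. Deviations cancel out within each group, so the lower values for other numbers come in part from the calculation itself. A second fit with the culture number as a block was therefore run, and values are from the fit without it unless stated. The other alternatives were the normalization, the added constant, a filter on dim probe sets, eBayes without a trend, other probe sets and left-out cultures.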

Additional observations from a re-analysis of the deposited data

How the results depend on the processing

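No alternative brought any of the 10 genes or the 46 other pathway genes past the threshold in limma, and 1 probe set passed in every fit. Unadjusted p under 0.05 were found for 194 probe sets in the reported fit, 35 without between-array normalization and 441 with the culture number as a replicate block, and for 0 of the 10 genes in each. Of the 46 other genes there were 1, 0 and 2 in these fits. There were 4 without [GAR+] culture 3, where 151 of 6504 probe sets had such a p. MFA1 had an unadjusted p of 0.0045 in limma without [gar-] culture 1. The smallest adjusted p among the 10 was 0.770, for STE4 with the replicate block. Without between-array normalization the median of all probe sets was 0.16 and that of the 10 genes 0.19, which is 0.03 above all probe sets, against 0.01 in the reported fit. At that setting STE11 gave 0.10, STE12 0.038, FUS1 0.070, STE3 0.044, STE2 0.14, STE20 0.010 and BAR1 0.071, all on the other side of 0 and all below the shift of 0.16. Without both cultures numbered 2 the sign turned for STE5 at -0.0058, FUS3 at -0.13, STE12 at 0.063, STE2 at 0.055, DIG1 at -0.034 and BAR1 at 0.039, and the median of the 10 genes was -0.0010. The other probe sets of FUS3 gave -0.33 for 2458_g_at and -0.18 for 2457_at, which carries no usable level. The causes were not tested. With 1 culture left out in turn, the ranges were -0.093 to 0.14 for GPA1, -0.39 to 0.0099 for STE4, -0.047 to 0.12 for STE5, -0.10 to 0.17 for STE7, -0.073 to 0.31 for FUS3, -0.30 to 0.091 for STE12 and -0.011 to 0.43 for SST2. They were -0.099 to 0.011 for STE3, -0.11 to 0.14 for STE2, -0.27 to 0.0053 for STE20, -0.11 to 0.25 for DIG1, -0.10 to 0.30 for PTP2 and -0.23 to 0.061 for BAR1. With dim probe sets left out, 8 of the 10 genes and 33 of the 46 others were tested, and FUS1 and STE7 were not. Signals near the controls, as for FUS1, STE3 and PRM2, limit what can be read from these genes.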
